A study of Mus musculus with 6 samples.

Results

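The mouse names miR-297, miR-466, miR-467 and miR-669 belong to 4 families of repeated miRNAs, most of which are made from a single intron of the polycomb gene Sfmbt2. They were taken by name from the table of all miRNAs, as every mouse name of the 4 families with an optional letter. This gave 49 of 1224 names, among 679 mouse names. These 49 names held 40 different sequences of 19 to 24 bases. After names taken to draw on the same reads were joined, they came to 33 sets of reads. In the cells studied they were present at low level, and 38.9% of their reads came from miR-467a-5p. None of the 22 names with enough reads for a test passed the threshold after METTL3 siRNA.

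The Sfmbt2 cluster is known only from rodents. It grew by tandem duplication of short units, so that many hairpins carry the same mature miRNA, and the hairpin arms are rich in alternating U and G on the 5p side and in alternating C and A on the 3p side. As with other miRNAs, the hairpin is cut out of the primary transcript by Drosha and DGCR8, Dicer releases the arms, and bases 2 to 8 of the arm that is loaded into Argonaute (the seed) pair with target mRNAs. Sfmbt2 is imprinted and best known from the mouse placenta, and the miRNAs of its intron are also known from mouse embryonic stem cells.

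Small RNA was sequenced from GC-1spg, an immortalised mouse line used as a model of spermatogonia. One group of 3 libraries (si-METTL3) came from cells transfected with an siRNA against METTL3, the enzyme that adds the m6A mark to RNA, and the other 3 (si-NC) from cells given a control siRNA, all collected at 48 h. The labels print one and the same sequence for both siRNAs, and Mettl3 mRNA is not part of a miRNA table. The groups are therefore those of the sample titles, and the knockdown could not be checked. Nothing says that the 3 libraries of a group were separate cultures, so p-values measure the spread between libraries, which may be technical. All libraries come from one cell line.

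Library totals were 3998058 to 4052812 reads in si-NC and 4473804 to 6132668 in si-METTL3, and 1 read stood for 0.163 to 0.25 TPM, the deposited count scaled to the library total. All 7 markers of male germ cells were listed, summing to 548 to 567 TPM in si-NC and 570 to 602 in si-METTL3, whereas 0 of 10 markers of pluripotent cells were listed. All 6 blood markers were listed at 64.7 to 79.5 TPM in si-NC and 63.5 to 70.4 in si-METTL3. The 3 markers of undifferentiated spermatogonia were dominated by miR-21a-5p. The 4 epithelial markers summed to 100 to 123 TPM in si-NC and 67.8 to 71.8 in si-METTL3, and the 3 neuronal markers to 209 to 235 and 254 to 302. Bantam, an insect miRNA, was read 1 time in si-NC 1 and 52 to 252 times in the other libraries. The part of these differences in the results below was not tested.

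The sequences of the most abundant arms are set out here. They are written 5′ to 3′ as in the deposited table, with T for U and bases 2 to 8 in capitals. The first group holds the 5p arms of miR-467, which are no simple repeats.
miR-467a-5p: tAAGTGCCtgcatgtatatgcg
miR-467b-5p: gTAAGTGCctgcatgtatatg
miR-467c-5p: tAAGTGCGtgcatgtatatgtg
miR-467d-5p: tAAGTGCGcgcatgtatatgcg
miR-467e-5p: aTAAGTGTgagcatgtatatgt
Counted from 1 at the 5′ end, miR-467c-5p differs from miR-467a-5p by C8G and C21T, and miR-467d-5p by C8G and T9C. The change at position 8 gives both a seed that differs in its last base. miR-467b-5p is the miR-467a-5p sequence moved by 1 base, so its seed is another one although it lies on the same hairpins. Bases 2 to 7 of miR-467a-5p, miR-467c-5p and miR-467d-5p, AAGTGC, occurred at that place in 1 other mouse name of the table, miR-350-5p. The same letters stand in the seed of miR-302, a miRNA of pluripotent cells, which was not among the listed names.

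The 3p arms and the remaining 5p arms are shown for the contrast of their repeats.
miR-466a-3p: tATACATAcacgcacacataaga
miR-466b-3p: aTACATACacgcacacataaga
miR-466d-3p: tATACATAcacgcacacatag
miR-467a-3p: cATATACAtacacacacctaca
miR-669a-3p: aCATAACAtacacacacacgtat
miR-466f-3p: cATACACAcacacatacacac
miR-466i-3p: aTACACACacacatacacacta
miR-466c-5p: tGATGTGTgtgtgcatgtacatat
miR-669a-5p: aGTTGTGTgtgcatgttcatgtct
miR-669c-5p: aTAGTTGTgtgtggatgtgtgt
miR-297b-5p: aTGTATGTgtgcatgaacatgt
The letters TGTGTG, searched as written on the mature strand, stood in 17 of 22 different 5p sequences of the families and in 0 of 16 3p sequences, against 1.30% of the 1152 sequences of the table that are no member. ACACAC, the reverse complement of GTGTGT, stood in 11 of 16 3p sequences and 0 of 22 5p sequences, against 0.868% of the others. The median share of G and T was 71.8% in the 5p sequences, and that of A and C was 77.3% in the 3p sequences. The 5p arms of miR-467 held neither run of letters.

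The 49 names had 26 different seeds. The most widely shared, ATACATA, joined miR-297a-3p, miR-297b-3p and miR-297c-3p with miR-466a-3p, miR-466d-3p and miR-466e-3p, so it crosses a family border. miR-467a-3p and miR-669f-3p likewise shared ATATACA. miR-466m-5p and miR-669m-5p, names of different families, had one and the same sequence. No other mouse name of the table had a seed in common with a member over all 7 bases. The 3p arms miR-467c-3p, miR-467d-3p and miR-467e-3p shared bases 2 to 7 with the 3p arms of let-7 and with miR-98-3p.

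In GENCODE M21, on the build GRCm38 (mm10), every one of the 49 sequences was found exactly in at least 1 annotated hairpin, and 46 in a hairpin on the same strand as Sfmbt2 within its intron. The gene spans chromosome 2, 10370510 to 10595253, plus strand. Of 81 hairpins that carry a symbol of the 4 families, 71 lay in this one intron (intron 10 of Sfmbt2-201, 10461473 to 10523944), 5 of miR-297, 23 of miR-466, 14 of miR-467 and 29 of miR-669. They cover 51.6 kb, from 10466663 to 10518279. The 10 Mir467a hairpins followed each other at a median of 2462 bases, the 12 Mir669a hairpins at 2457 and the 8 Mir466b hairpins at 2470. The widest distances were 4880, 6373 and 9795 bases. Left out of these counts and distances, but not of the divisions per hairpin below, are Gm25022, Gm25285, Gm25943 and Gm26092. They are annotated hairpins with member sequences in the same intron. The 3 members without a hairpin there were miR-466k on chromosome 3, miR-466i-3p on the plus strand of chromosome 13 (17747552 to 17747573, in a Cdk13 intron and opposite to that gene) and miR-466i-5p, a pure run of alternating T and G.

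**Figure D1:**
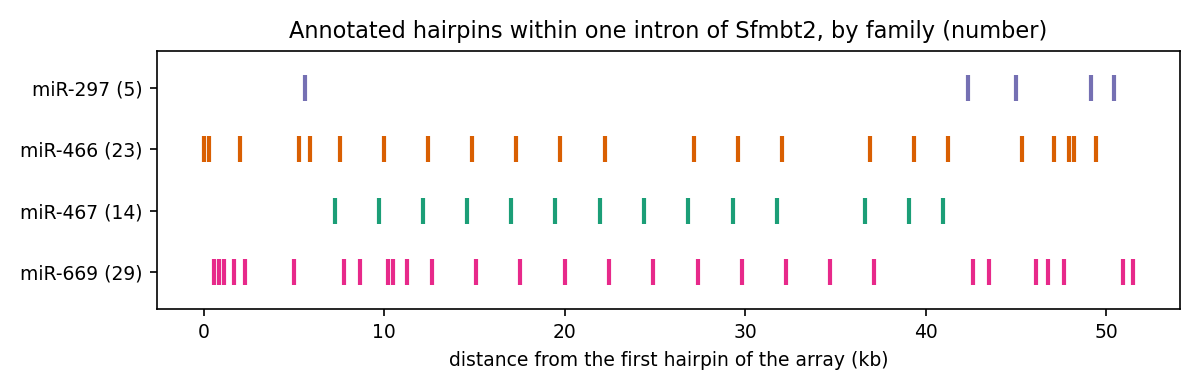
Position of the 71 annotated hairpins of the array, in kb from its first hairpin, with one row per family and one tick per hairpin. Hairpins of miR-466, miR-467 and miR-669 alternate at a regular distance through the middle of the array.

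A hairpin of the miR-466b kind and one of the miR-669a kind are printed here with their mature arms in capitals.
Mir466b-1 (chr2:10474219-10474300, plus strand): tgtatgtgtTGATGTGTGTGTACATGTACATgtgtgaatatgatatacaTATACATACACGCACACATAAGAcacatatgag
Mir669a-1 (chr2:10476853-10476949, plus strand): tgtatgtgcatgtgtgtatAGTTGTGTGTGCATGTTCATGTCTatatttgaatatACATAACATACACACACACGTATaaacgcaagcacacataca
The letters GGAC, the best known core of the sites that METTL3 methylates, were searched on the transcribed strand. They stood in 1 of the 81 hairpins, Mir467h on chromosome 9, and in 573 of all 2202 GENCODE miRNA hairpins. The flanks of the hairpins and other forms of the site were not searched, and a match is a description of letters, not of methylation.

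The repeats decide what a count means here. miR-466a-3p, miR-466b-3p, miR-466c-3p, miR-466e-3p and miR-466p-3p had exactly the same count in every library, although their sequences come in 2 forms that differ by 1 base at the start. miR-467a-5p and miR-467b-5p, moved by 1 base, had 379 and 379 reads in si-NC 1 and 605 and 601 in si-METTL3 1. These equal or nearly equal counts were taken to mean that the same reads were counted under several names. Sequences that were equal after a shift of up to 2 bases, or that had equal counts and at least 18 bases in common, were therefore joined into 33 sets, 11 of which hold more than 1 name (27 names in all). This joining was chosen after seeing the data. 12 genes other than miRNAs had miR-466f-3p in a GENCODE transcript, 2025 had miR-466i-5p and 1 had miR-466g, so reads of those names need not come from a miRNA hairpin. The other 46 names were found over their full length in no transcript of another gene. Shifted matches, introns and sequence between genes were not searched. Among the 46 is miR-466i-3p, whose sequence overlaps that of miR-466f-3p after a shift.

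The families differed widely in level. With shared reads counted once, the si-NC libraries had 245, 281 and 252 TPM of all 4 families together, and the si-METTL3 libraries 246, 220 and 257. The total of 40 sequences without this joining was 341 to 437 TPM over the 6 libraries, and the sum over every name, copies included, 461 to 600. In the values per family, the reads of miR-466m-5p and miR-669m-5p, one sequence with 0 to 3 reads per library, enter both families. miR-467 was the leading family in each of the 6 libraries, with 109.5 to 132.6 TPM, and miR-297 the lowest, with 1.25 to 3.13. miR-669, with 55.2 to 75.5 TPM, and miR-466, with 52.5 to 72.0, lay close together, and miR-466 was the higher of them in si-METTL3 1 and si-METTL3 3 and the lower in the other libraries. A total of 5 sets had a mean of at least 10 TPM and held 75.0% of the 6795 reads, 14 had 1 to 10 TPM and 14 less than 1 TPM.

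miR-467a-5p, a strand known in the mouse to repress thrombospondin-1, was the most abundant member and ranked 140 of 679 mouse names. It had 379, 420 and 355 reads in si-NC and 605, 392 and 494 in si-METTL3, which are 93.5, 105 and 88.7 TPM against 98.7, 87.6 and 108 TPM. The lowest and the highest of the 6 values were both si-METTL3 libraries. Its own reads were 2645 in the 6 libraries together, of 6795 for all members.

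The shared reads of miR-466a-3p and its 4 copies came next, with 28.1, 37.3 and 35.2 TPM in si-NC and 29.8, 27.0 and 32.2 in si-METTL3. The groups overlap. miR-669a-3p and miR-669o-3p, one sequence under 2 names, had 26.6, 30.8 and 32.5 TPM in si-NC and 24.9, 23.2 and 29.6 in si-METTL3, again with overlap. Hairpins of the miR-669a kind are known in the mouse for repressing MyoD in cells of the heart.

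miR-669c-5p, which comes from a single hairpin (mature sequence on chromosome 2, 10509319 to 10509340, plus strand), had 17.0, 19.8 and 20.7 TPM in si-NC and 16.5, 15.9 and 16.0 in si-METTL3. All 3 si-METTL3 libraries lay below the lowest si-NC library, by little. miR-669a-5p, equal in sequence to miR-669p-5p, had 61, 74 and 51 reads in si-NC and 75, 51 and 55 in si-METTL3, on average 15.4 ± 2.90 and 11.9 ± 0.435 TPM (SD, n = 3). Its groups did not overlap in TPM, but the lowest si-NC library, at 12.7, was close to the highest si-METTL3 library, at 12.2.

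Below a mean of 10 TPM stood further miR-467 and miR-466 names, not all of them from single hairpins. miR-466f-3p had 5.36 to 9.13 TPM over the 6 libraries. miR-466d-3p had 6.93 to 10.8 TPM over the 6 libraries, miR-467d-5p 6.74 to 11.3 and miR-467c-5p 4.19 to 9.29. The most abundant 5p name of miR-466, miR-466c-5p, had 3.13 to 5.92 TPM, and the 3p arm miR-467a-3p, with miR-467d-3p, 17, 24 and 19 reads in si-NC and 26, 16 and 10 in si-METTL3. miR-466n-3p had 1.75 to 4.50 TPM and miR-467e-5p 1.48 to 2.61.

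The remaining members were near the limit of detection, 3 reads or 0.489 to 0.75 TPM in a library. miR-466g, one of the 2 names with no arm, had 0.326 to 2.25 TPM. miR-297b-5p, the most abundant miR-297 name, had 4, 3 and 2 reads in si-NC and 12, 7 and 3 in si-METTL3. miR-297a-3p, with its copies miR-297b-3p and miR-297c-3p, had 0, 1 and 1 reads against 3, 5 and 1. miR-466l-3p, known in mouse macrophages for stabilising Il10 mRNA, had 8 reads in the 6 libraries together. Of the 49 names, 13 had no read in at least 1 library.

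**Figure D2:**
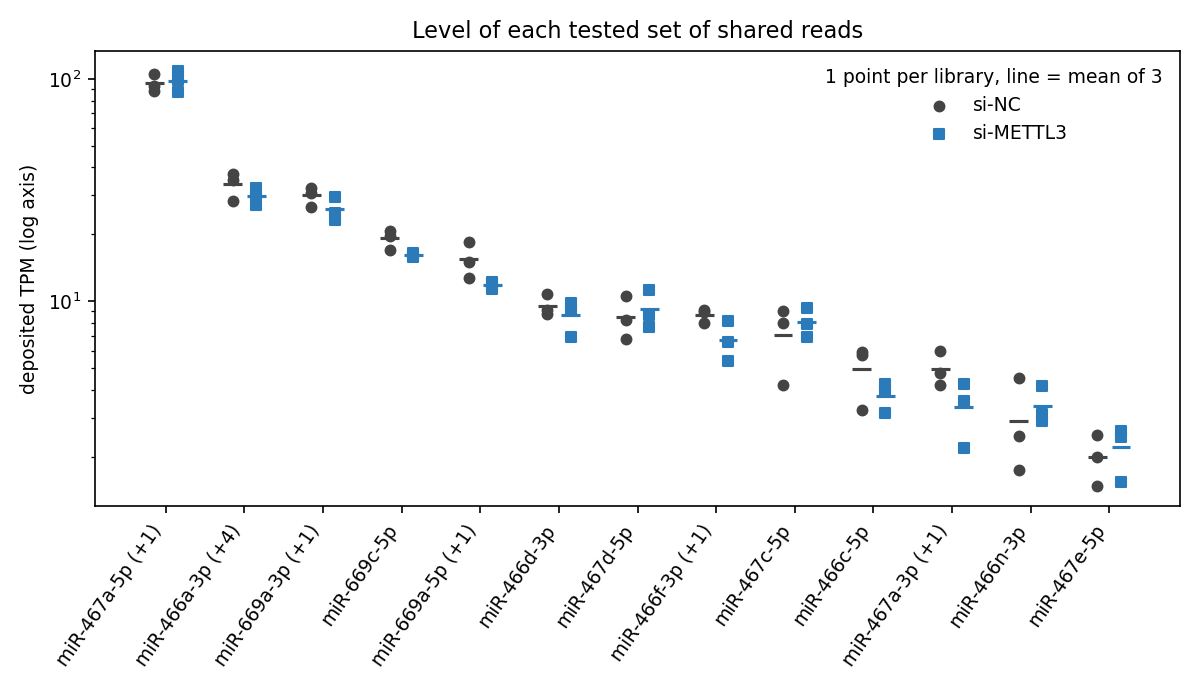
Deposited TPM of the 13 tested sets of reads on a log axis, one point per library (circles si-NC, squares si-METTL3) with a line at the mean of 3. A number in brackets counts further names joined to the set, and the values are those of the name shown. The sets run from miR-467a-5p at 87.6 to 108 TPM down to miR-467e-5p at 1.48 to 2.61.

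The reads of a sequence can be divided by the number of its annotated hairpins. The sequence of miR-467a-5p and miR-467b-5p lay in 12 hairpins, which spreads its reads to 8.08 TPM per hairpin (SD over the 6 libraries 0.708). miR-467d-5p had 8.87 ± 1.74 TPM (SD, n = 6) and miR-467c-5p 7.55 ± 1.85 from 1 hairpin each, and miR-467e-5p, also from 1 hairpin, 2.10 ± 0.503. Per annotated hairpin the 5p arms of miR-467a, miR-467c and miR-467d thus differed by less than the SD of the single-hairpin arms, with miR-467e-5p lower. In miR-669 the single-hairpin sets ranged from 17.6 ± 2.08 TPM for miR-669c-5p down to 0.981 for miR-669f-3p and 0.178 for miR-669o-5p. The repeated miR-669a-3p, with 2.15 ± 0.275 per hairpin from 13, and miR-669a-5p, with 0.911 ± 0.179 from 15, lay within that range. In miR-466 the single-hairpin sets ranged from 9.09 ± 1.28 TPM for miR-466d-3p and 3.15 ± 1.03 for miR-466n-3p down to 0.293 for miR-466l-3p, and miR-466a-3p, with 2.11 ± 0.269 per hairpin from 15, again lay between. The sequence of miR-466d-3p equals the start of miR-466a-3p in all but its last base, and whether they share reads was not tested. These divisions give each annotated copy an equal part, and the reads cannot be assigned to single copies.

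The 2 arms were used in opposite ways by the families. In miR-467, 94.2% to 97.9% of the reads of both arms were 5p reads in the 6 libraries, with exact binomial 95% intervals from 91.8% to 98.9%. In miR-466 the 5p share was 10.5% to 15.9% (intervals from 7.18% to 20.8%), so the 3p arm made up most reads. The family sum of miR-669 was balanced, with a 5p share of 49.1% to 57.6% (intervals from 43.1% to 63.3%). That sum holds unlike parts. Over the 6 libraries miR-669a-5p had 367 reads against 753 of miR-669a-3p. A further 476 of the 5p reads were miR-669c-5p, for which no 3p name is listed. In miR-297 the share was 64.3% to 100%, on 5 to 17 reads per library. No library of miR-467, miR-669 or miR-466 overlapped a library of another of these 3 families in its share. By group, the share was 53.0% to 57.6% in si-NC and 49.1% to 55.1% in si-METTL3 for miR-669, 10.5% to 15.9% and 12.3% to 13.1% for miR-466, and 94.2% to 96.3% and 96.4% to 97.9% for miR-467. In miR-467 the groups did not overlap, on 12 to 31 3p reads per library. How often such shares of other miRNAs separate was not computed, and 43.4% of all tested names had no overlap in TPM. The intervals of si-NC 2 (91.8% to 96.0%) and si-METTL3 3 (96.4% to 98.9%) lay apart. Those of every other pair of libraries across the groups overlapped. Intervals cover counting error only.

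**Figure D3:**
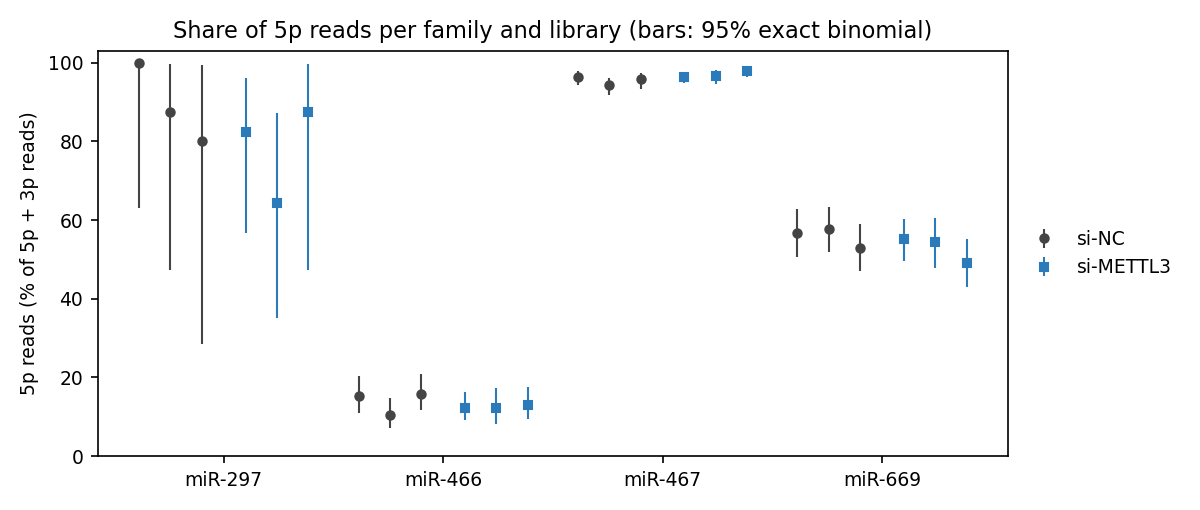
Share of 5p reads among the 5p and 3p reads of each family in percent, one point per library (circles si-NC, squares si-METTL3), with exact binomial 95% intervals. miR-467 lies at 94.2% to 97.9%, miR-669 at 49.1% to 57.6% and miR-466 at 10.5% to 15.9%, while the intervals of miR-297 are wide.

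The comparison of si-METTL3 with si-NC asks whether these miRNAs differ in cells given METTL3 siRNA. Of the 49 names, 22 (13 sets of reads) had enough reads for edgeR's quasi-likelihood test, and 0 of the 22 passed an adjusted p of 0.05 in either direction (two-sided, Benjamini-Hochberg adjustment over all 622 names tested). Over all names 29.3% passed, 17.7% higher and 11.6% lower, and 36.5% had an unadjusted p under 0.05, against 1 of the 22. Among the 443 tested names within the members' range of mean level, 2.10 to 96.9 TPM, 18.3% passed. The median log2 fold of si-METTL3 over si-NC was -0.11 over the 22 names and also -0.11 over the 13 sets (5 above 0 and 8 below), against 0.0054 over all names. DESeq2 and limma passed 0 members as well. None of the 49 stood on the authors' deposited list of 50 differently expressed miRNAs.

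For miR-467a-5p the log2 fold was 0.10 with an SE of 0.09 (adjusted p 0.427, edgeR's quasi-likelihood test), and the 95% interval of its fold was 0.949 to 1.21. The 5 tested 5p names of miR-467, among them miR-467b-5p with nearly the same reads as miR-467a-5p, had log2 folds from 0.10 to 0.27. miR-467d-5p had 0.19 ± 0.22 and miR-467c-5p 0.27 ± 0.25, with intervals of the fold of 0.831 to 1.56 and 0.840 to 1.72. The 3p arm miR-467a-3p, at 4.16 TPM, had a log2 fold of -0.48 ± 0.32 (adjusted p 0.287, interval of the fold 0.454 to 1.13).

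For the 3p reads of miR-466a-3p and its copies the log2 fold was -0.11 ± 0.13 (adjusted p 0.591, edgeR, interval of the fold 0.771 to 1.12). miR-466d-3p had -0.07 ± 0.21 and miR-466c-5p -0.32 ± 0.31 (adjusted p 0.494). The member nearest to the threshold was miR-466i-3p, with 23, 20 and 26 reads in si-NC and 28, 12 and 13 in si-METTL3, which are 5.68, 5.00 and 6.49 TPM against 4.57, 2.68 and 2.85. The si-METTL3 libraries all lay below the si-NC libraries, and the log2 fold was -0.66 ± 0.30 (adjusted p 0.114, edgeR, interval of the fold 0.411 to 0.976). Without si-METTL3 1, the highest library of its group, it passed with a log2 fold of -0.96 and an adjusted p of 0.0487. Its sequence overlaps that of miR-466f-3p after a shift, and the joining rule put both into one set. Their counts differ, and how many reads they share is not known. miR-466f-3p, the larger count of the set, had 37, 32 and 36 reads in si-NC and 50, 24 and 30 in si-METTL3. Its log2 fold was -0.29 ± 0.22 (adjusted p 0.374, edgeR), and its groups overlap.

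In miR-669 all 5 tested names had a log2 fold below 0, as had 304 of all 622 names tested. Among the 5, miR-669o-3p and miR-669p-5p are copies with the reads of miR-669a-3p and miR-669a-5p. miR-669a-3p had -0.14 ± 0.14 (adjusted p 0.481, edgeR, interval of the fold 0.746 to 1.10), miR-669c-5p -0.18 ± 0.16 (adjusted p 0.458, interval 0.697 to 1.11) and miR-669a-5p -0.31 ± 0.18 (adjusted p 0.237, interval 0.620 to 1.05). The groups did not overlap in TPM for 4 of the 22 tested names, miR-669c-5p, miR-669a-5p, its copy miR-669p-5p and miR-466i-3p, where the same held for 43.4% of all tested names. On the TMM scale of edgeR's test it held for 2 of the 22, miR-669c-5p and miR-466i-3p, against 41.2% of all.

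**Figure D4:**
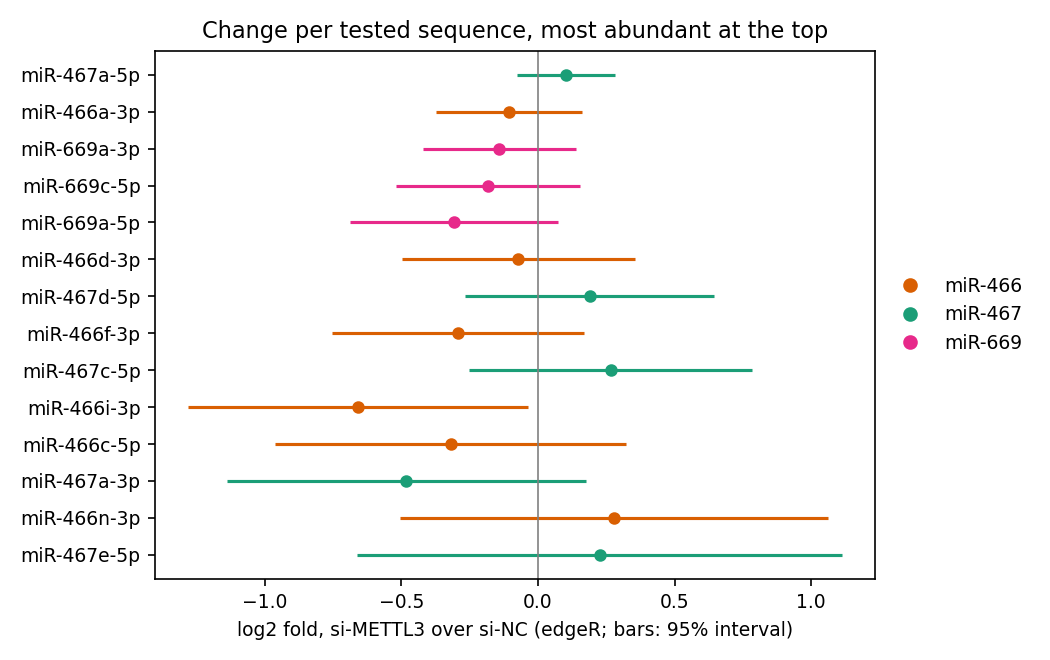
Log2 fold of si-METTL3 over si-NC with its 95% interval from edgeR for the 13 tested sets and for miR-466i-3p, ordered by mean level and coloured by family. The interval of miR-466i-3p alone leaves out 0, before any adjustment, and the intervals widen from miR-467a-5p at the top to the sets of few reads.

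**Figure D5:**
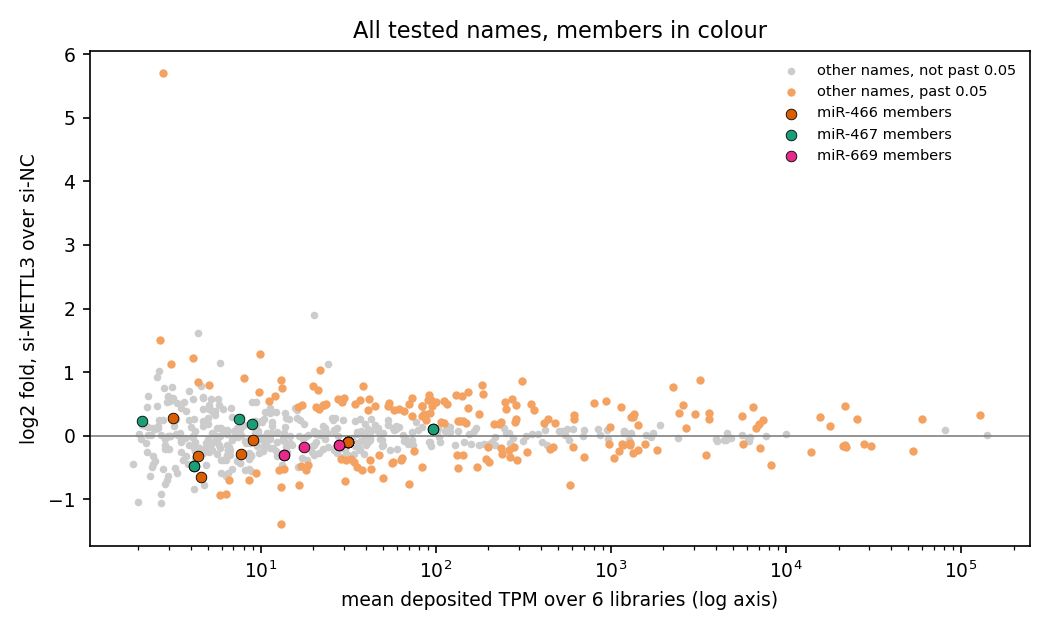
Log2 fold of si-METTL3 over si-NC against mean TPM (log axis) for the 622 tested names, with names past an adjusted p of 0.05 in orange and the 22 members in family colours. All members lie at or below 96.9 TPM, and none is among the names past the threshold.

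The makeup of the families' reads can be read without any scaling between libraries. miR-467 held 46.5%, 47.1% and 43.7% of them in si-NC and 51.4%, 49.8% and 49.7% in si-METTL3, and miR-669 27.0%, 26.8% and 28.4% against 23.6%, 25.1% and 23.9%. In both families the groups did not overlap, but how often such shares of other miRNAs separate was not computed. The shares of a library are parts of one whole, so they do not vary separately. The exception is the sequence of miR-466m-5p and miR-669m-5p, whose 0 to 3 reads per library enter both families. miR-466 held 25.6% to 27.4% in si-NC and 23.9% to 25.6% in si-METTL3. By level, the 5p reads of miR-669 stood at 37.5, 43.5 and 38.0 TPM in si-NC and 32.0, 30.0 and 30.2 in si-METTL3, a ratio of the means of 0.774, again without overlap, also on the TMM scale. This sum includes miR-669c-5p and miR-669a-5p, whose groups are described above. Of all tested names, 43.4% had no overlap in TPM and 41.2% none on the TMM scale. The 5p reads of miR-467 had a mean ± SD of 113 ± 10.2 TPM over the si-NC libraries and 118 ± 10.4 over the si-METTL3 libraries, a difference smaller than the spread. The 3p reads of miR-466 were 56.0 ± 6.02 and 49.4 ± 5.56 TPM, and those of miR-669, 28.6 to 33.7 and 25.3 to 31.3. No p is given for these sums, and 3 against 3 libraries could not go below an exact p of 0.1.

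Of 10 related names, 2 could be tested and 0 passed. These were the arms of miR-574, whose 5p sequence is also a run of U and G. For miR-574-5p edgeR gave a log2 fold of 0.05 ± 0.08 with an adjusted p of 0.701, and for miR-574-3p -0.08 ± 0.09 with 0.550. The sign of miR-574-5p flips, to -0.01, with library totals in place of TMM. The third in abundance, miR-3082-3p, had 2, 7 and 18 reads in si-NC and 16, 5 and 5 in si-METTL3. miR-466-z, named after its values were seen, carries no mouse prefix in the table and shares its first 20 bases with miR-466g, but its full sequence was in 0 of the hairpins that held a member. It had 2, 0 and 4 reads in si-NC and 15, 11 and 6 in si-METTL3, too few for the test, and the authors' deposited table lists it with a log2 fold of 2.05 and an FDR of 0.0133. miR-466g itself had 7, 9 and 4 reads against 2, 10 and 8.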

How the data were processed

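Small RNA of 6 libraries was analysed. Per the file headers, the authors deposited a whole-number count and a TPM per mature name and library, and each deposited TPM equals its count scaled to one library total, with 0 written as 0.01. The deposited log2 fold change is that of the authors' group means, and the deposited p-value and FDR come from a test that no source used here names. The deposited total is the sum of the 6 counts. The tools named, per the submitters' processing notes and without a role, are RSEM, StringTie, Bowtie2 and fastp, with the build mm10. No source used here says how reads matching several names were counted. Of the full table, 2 lines were empty and are not analysed here, so totals cover the listed names.

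Counts were tested with edgeR 4.0.16 (R 4.3.3), using glmQLFit with robust estimates, filterByExpr, TMM on the library totals, and Benjamini-Hochberg adjustment over all names. The common coefficient of biological variation was 0.0583. SEs were derived from the F statistic, and 95% intervals use its degrees of freedom. The procedure was tested on simulated data. The alternatives used limma 3.58.1 and DESeq2 1.42.0, other scalings and filters, mouse names only, one name per sequence, a replicate block, and each library left out. Named members are those that passed, those at 10 TPM or more on average, the most abundant of each family and arm, the 4 largest folds and those without overlap; others are named for the comparison of copies. Members, lists and alternatives were chosen with earlier results of these data known. Sequences are those of the deposited table, and hairpins were matched exactly in GENCODE M21 (GRCm38). RefSeq's miRNA table held 2 of the 49 names and was not used for sequences.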

Additional observations from a re-analysis of the deposited data

How the results depend on the processing

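The count of members past the threshold was 0 under every other scaling, filter and tool tried. It was 0 to 1 when each library was left out, the 1 being miR-466i-3p without si-METTL3 1 (log2 fold -0.96, adjusted p 0.0487, edgeR; range over the alternatives 0.0487 to 0.292). Over all names 153 to 171 passed with a library left out, against 182. Related names past the threshold were 1 without a filter, 1 with at least 1 CPM in 3 libraries and 0 to 1 with a library left out; each time this was miR-466-z (adjusted p 0.0159, 0.0317, and 0.0363 and 0.0419 without si-NC 1 or si-NC 3, but 0.129 without si-NC 2). miR-574-5p changed sign, at -0.01342 with library totals alone and at -0.01251 and -0.01259 with limma on log2 of TPM plus 1 or 0.5, and the cause was not tested. The log2 folds of the 16 members that the naming rule chose among those tested kept their sign. Those of miR-467c-5p, miR-467d-5p, miR-467e-5p, miR-466d-3p, miR-466f-3p and miR-466n-3p were not recomputed. The replicate block passed 0 members and 176 names, and same-numbered libraries did not deviate together (r -0.337, -0.0683 and -0.268), so the numbers were not taken as pairs. Depth limits the rest, since 3 reads stand for 0.489 to 0.75 TPM. The filter of the main fit left out 27 members with a mean of up to 1.55 TPM. Without a filter all 49 members were tested, on these few reads, and 0 passed.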
